A study of Mus musculus with 3 samples.

Results

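Genes of the bone morphogenetic protein (BMP) and transforming growth factor beta (TGF-beta) pathway were followed in neurospheres, floating colonies grown from neural precursors. The members were chosen by symbol: names beginning with Bmp and a digit, Bmpr, Gdf and a digit, Acvr, Inha, Inhb or Smad and a digit, the TGF-beta ligands and receptors, and the antagonist genes Nog, Chrd, Grem1 and Fst. Of 22180 genes measured, 52 met that rule. Gdf1 and Gdf15 had no probe set that carried that symbol alone and were not analysed here.

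The series holds 3 expression arrays, all of 1 group, and no treated or mutant group to compare it with. Per the labels, the total RNA was that of cultures from the ventricular-subventricular zone (V-SVZ), where neural stem cells line the brain's lateral ventricles, and the donors were CD1 pups, WT by genotype, aged P8 (postnatal day 8, with day 7 also allowed by the growth protocol). All cultures were seeded at 10 cells per microlitre and grown for 7 days with 10 ng/ml FGF, 20 ng/ml EGF and 2 µg/ml heparin. No BMP, TGF-beta or BMP antagonist is listed among the additions to the medium. Pups were cultured apart, but the labels do not say whether an array stands for a single pup. The p-values rest on a spread between 3 arrays that was pooled over genes of like signal and may be technical. A gene's own spread did not set its p-value.

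Values are log2 signals. Each gene was set against a reference level, the 95th percentile of 1400 olfactory and vomeronasal receptor probe sets on the same array, which stood at 5.63, 5.53 and 5.71 on arrays 1, 2 and 3. The margin is a gene's log2 signal minus that level, averaged over the arrays. A gene was called above it when limma's one-sided moderated test gave an adjusted p under 0.05 over all genes. The spread behind that test includes the differences between the arrays' reference levels, which every gene shares. For a gene with equal values on all arrays, such as Bmp4, they were the whole spread (standard deviation of the margin 0.091). Its p-value therefore does not measure how the gene varied between cultures. A call says that a signal exceeded the level of receptors that serve the nose, and a missing call does not show that a transcript was absent. Probes differ in how strongly they bind, so margins of different genes do not rank their transcripts. The arrays were made from whole cultures, where fewer cells of a type and less RNA per cell cannot be told apart. By the marker lists, 9 of 9 measured V-SVZ precursor genes, 6 of 6 astrocyte genes, 4 of 5 neuroblast genes and 4 of 4 oligodendrocyte precursor genes were called. The counts were 3 of 7 for microglia, 1 of 6 for endothelial, 4 of 8 for mural and fibroblast and 2 of 6 for choroid plexus and ependymal genes. Of all genes, 59.1% were called, and counts of such small lists are descriptions.

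In this pathway, secreted ligand dimers bind pairs of type I and type II receptors, which are serine/threonine kinases. Most but not all BMP-type ligands lead mainly to phosphorylation of Smad1, Smad5 and Smad9, and activins and TGF-betas to that of Smad2 and Smad3. These Smads join Smad4 and enter the nucleus, Smad6 and Smad7 restrain the pathway, and secreted antagonists such as noggin trap ligands outside the cell. In the V-SVZ, BMP signals are known for effects on glial fate and on the quiescence of stem cells.

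The neurospheres carried signal for the whole route from ligand to Smad, and the roles differed in how many of their genes were called. Of the 52 members, 35 (67.3%) were above the reference level, against 59.1% of all genes by limma's test, and the median margin was 1.28 for the members and 0.76 for all genes. All 8 Smads were called, as were 9 of 12 receptors, 3 of 4 antagonists and 13 of 26 ligands. Within the ligands, 7 of 16 BMP-type genes and 6 of 10 activin, TGF-beta and related genes were called. These shares are descriptions of small lists, and no test between roles was made. The same 35 members (67.3%) were above the reference level on every array, against 59.6% of all genes. Without the 1390 receptor genes behind the reference level, 62.8% of the remaining genes were called, with a median margin of 1.05.

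**Figure D1:**
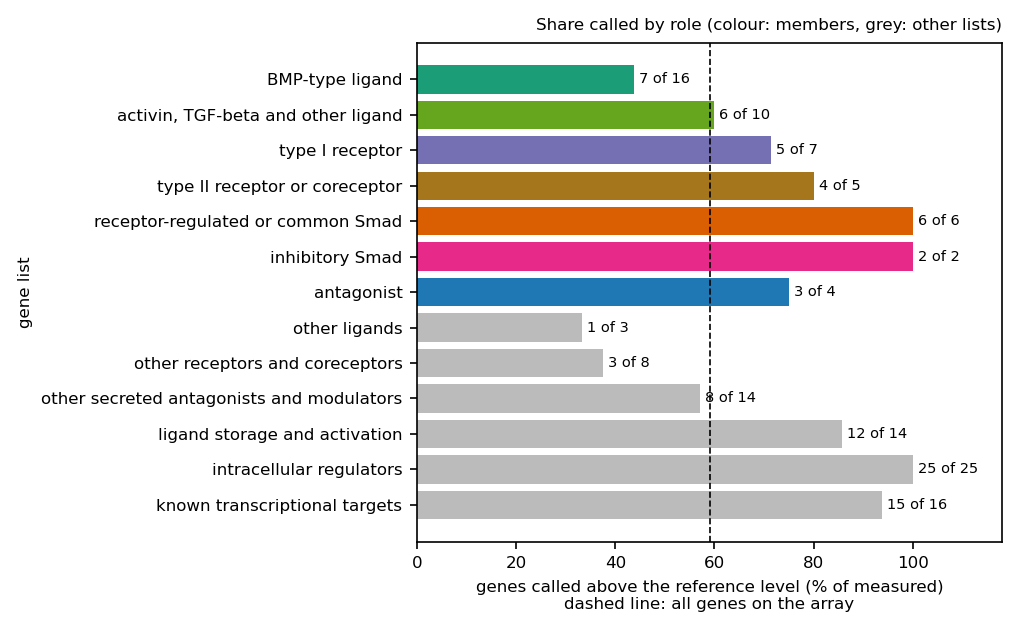
Share of measured genes called above the reference level, in percent, for each role among the members (colour) and for other pathway lists (grey), with the counts beside the bars. The dashed line marks the 59.1% of all genes that were called, and the BMP-type ligands (7 of 16) lie under it while both groups of Smads reach 100%.

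Among the BMP-type ligands, Bmp4, Bmp7 and Bmp6 had the highest margins. Bmp4, a ligand used widely in forebrain development, had a log2 signal of 11.15 on each of the 3 arrays and a margin of 5.52. Bmp7, another ligand of the same family, had 8.03, 8.05 and 8.03, a margin of 2.41. Bmp6 had 6.66 on each array, a margin of 1.03. All values of these genes lay above the reference level of each array. The calls of Bmp4 and Bmp7 held under each alternative tried, while that of Bmp6 ended with the 99th percentile of the receptors as the reference (margin 0.26, limma adjusted p = 0.245) and with the genes of keratin-associated proteins, defensins and taste receptors in their place (margin 0.21, limma adjusted p = 0.441).

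A further 4 BMP-type ligands were called by a narrow margin. Gdf2, which encodes BMP9, a ligand known from liver and blood vessels, had 6.07, 5.92 and 6.07 (margin 0.39, limma adjusted p = 5.32e-07). Bmp8a had 5.96, 5.73 and 6.23 (margin 0.35, limma adjusted p = 7.37e-06). Gdf5, a ligand of joint formation, had 5.84, 5.80 and 6.01 (margin 0.26, limma adjusted p = 6.83e-04). Bmp3, a BMP family member described as an inhibitor of other BMPs, had 5.81 on each array (margin 0.19, limma adjusted p = 0.0121). All of these calls ended when the reference was the 99th percentile of the receptors, where the margins were negative. The call of Bmp3 also ended without array 1 (limma adjusted p = 0.185) and without array 2 (limma adjusted p = 0.0771), and that of Gdf5 without array 1 (limma adjusted p = 0.0611). Bmp3 had equal values on all arrays, so the reference levels and the test changed, not its signal. The second probe set of Gdf5 lay lower, at 4.67, 4.89 and 4.67, under each reference level.

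The other 9 BMP-type ligands were not called. Bmp2, the closest relative of Bmp4, had 5.07 on each array, a margin of -0.55. Bmp5 had 4.84, 4.65 and 4.84, and Gdf6 had 4.73 on each array, the lowest margin of the group at -0.89. Gdf7, a ligand of the dorsal midline of the neural tube, had 5.49 on each array (margin -0.14). The germ cell ligand genes Bmp15 and Gdf9 had margins of -0.53 and -0.19, and the heart ligand gene Bmp10 had -0.22. Bmp8b had 5.59, 4.96 and 5.63, under the reference level on each array. Gdf10, also known as BMP3b, had 5.77, 5.30 and 6.04, above the level on arrays 1 and 3 and under it on array 2 (margin 0.077, limma adjusted p = 0.260). Without array 2 it was called (margin 0.23, limma adjusted p = 0.00529).

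The TGF-beta ligand genes were all called. Tgfb2 had 8.72, 8.73 and 8.60 (margin 3.06), Tgfb3 had 6.99, 7.04 and 6.90 (margin 1.35), and Tgfb1 had 6.51 on each array (margin 0.88). The call of Tgfb1 ended at the 99th percentile (margin 0.11, limma adjusted p = 0.620) and with the keratin, defensin and taste receptor reference (margin 0.062, limma adjusted p = 0.828), and that of Tgfb3 ended with the second of these (margin 0.53, limma adjusted p = 0.0541). Gdf11, which encodes a ligand that signals through activin receptors, had 10.35, 10.44 and 10.35, a margin of 4.76. Gdf3, which encodes a ligand of early embryos, was not called at 5.34, 5.23 and 5.65.

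Among the genes of activin and inhibin subunits, the calls split. Inhbb, the activin beta-B subunit, had 7.13, 7.31 and 7.12 (margin 1.56), and Inha, the alpha subunit that pairs with a beta subunit to form inhibin, had 7.11 on each array (margin 1.49). Inhba, the activin beta-A subunit, had 4.45, 4.37 and 4.54 and the lowest margin of all members, -1.17. Inhbc and Inhbe, subunit genes known from liver, were not called, with margins of -0.25 and -0.80.

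**Figure D2:**
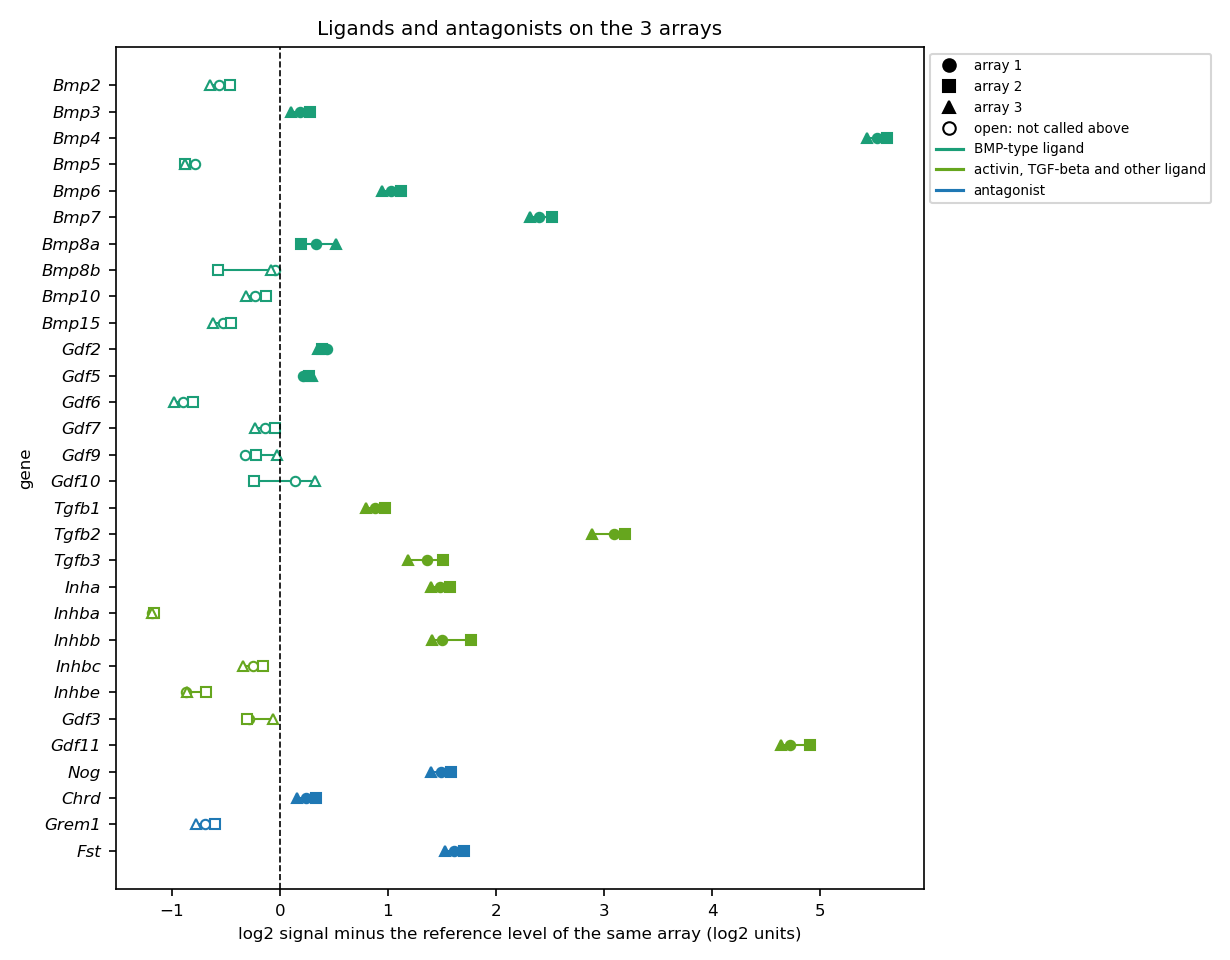
Log2 signal minus the reference level of the same array, on the x axis, for each ligand and antagonist gene, with 1 symbol per array and filled symbols for called genes. The called genes Bmp4 (margin 5.52) and Gdf11 (4.76) lie far right of the dashed zero line, while most other ligands lie within 1 log2 unit of it.

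The BMP receptors were detected together with the activin and TGF-beta receptors. The type I receptor genes Bmpr1a and Bmpr1b had 11.34 on each array (margin 5.72) and 9.49, 9.49 and 9.41 (margin 3.84). Acvr1, which encodes the type I receptor ALK2 that also serves BMPs, had 7.96, 7.99 and 7.89 (margin 2.32). Acvr1b, the activin type I receptor gene, had 8.81, 8.87 and 8.77 (margin 3.19), and Tgfbr1 had 8.30, 8.40 and 8.30 (margin 2.71). Each value lay over 2 log2 units above the reference level of its array.

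Acvrl1 and Acvr1c were the type I receptor genes not called. Acvrl1 encodes ALK1, a receptor for BMP9 known from endothelium, and had 5.50, 5.12 and 5.61, under the reference level on each array (margin -0.22). Acvr1c encodes ALK7, a receptor for activins and Nodal, and had 4.77 on each array (margin -0.86). The endothelial marker list, with 1 of 6 genes called, lay low as well, and its part in the Acvrl1 value was not tested.

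Type II receptor genes were called in each measured case. Bmpr2 had 12.15 on each array, the highest margin of all members at 6.52. Acvr2a had 8.25, 8.28 and 8.21 (margin 2.62), Acvr2b had 6.98 on each array (margin 1.35) and Tgfbr2 had 6.84 on each array (margin 1.21). The call of Tgfbr2 ended at the 99th percentile (margin 0.44, limma adjusted p = 0.0510) and with the keratin, defensin and taste receptor reference (margin 0.39, limma adjusted p = 0.152), which also ended that of Acvr2b (margin 0.53, limma adjusted p = 0.0538). The coreceptor gene Tgfbr3, which encodes betaglycan, a protein that presents TGF-beta2 and inhibin, was not called at 5.40 on each array (margin -0.22).

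All Smads were above the reference level on every array. Of the BMP-linked Smads, Smad5 had 9.05, 9.07 and 8.97 (margin 3.41), Smad1 had 7.894, 8.002 and 7.783 (margin 2.27) and Smad9 had 7.14, 7.25 and 7.14 (margin 1.55). Of the activin and TGF-beta-linked Smads, Smad2 had 9.85, 9.91 and 9.85 (margin 4.25) and Smad3 had 7.37, 7.40 and 7.37 (margin 1.75). Both branches were therefore measured above the level, and Smad4, the partner they share, had 10.28 on each array (margin 4.66). These 6 Smad calls held under each alternative tried.

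The inhibitory Smad7 had 7.64, 7.64 and 7.50 (margin 1.97) and Smad6 had 6.44, 6.55 and 6.44 (margin 0.85). Smad6 was no longer called when the 99th percentile was the reference (margin 0.077, limma adjusted p = 0.727) or with the keratin, defensin and taste receptor reference (margin 0.030, limma adjusted p = 0.924). Both genes are known to be switched on by the pathway they restrain. The motif GTCTAGAC, the palindromic Smad binding element, was searched in 36 member promoters. Smad7 had no window among them, so its promoter was not searched. The promoter of Smad6, the only one of the 36 with a match, is shown with the motif in capitals. It ran from 250 bases before to 10 bases after the RefSeq start on the minus strand, chr9:64022050-64022309 of GRCm38.p6, and the motif began 4 bases before the start.
Smad6: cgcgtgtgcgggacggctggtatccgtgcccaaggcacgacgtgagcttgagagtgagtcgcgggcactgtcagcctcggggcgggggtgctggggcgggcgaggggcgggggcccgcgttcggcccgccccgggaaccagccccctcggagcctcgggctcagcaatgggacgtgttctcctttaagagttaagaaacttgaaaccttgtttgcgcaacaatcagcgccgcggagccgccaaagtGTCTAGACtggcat
GTCTAGAC reads the same on both strands. It stood in 58 of 32851 windows of that length (0.177%), so 1 match in the members is a description and no sign of binding.

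**Figure D3:**
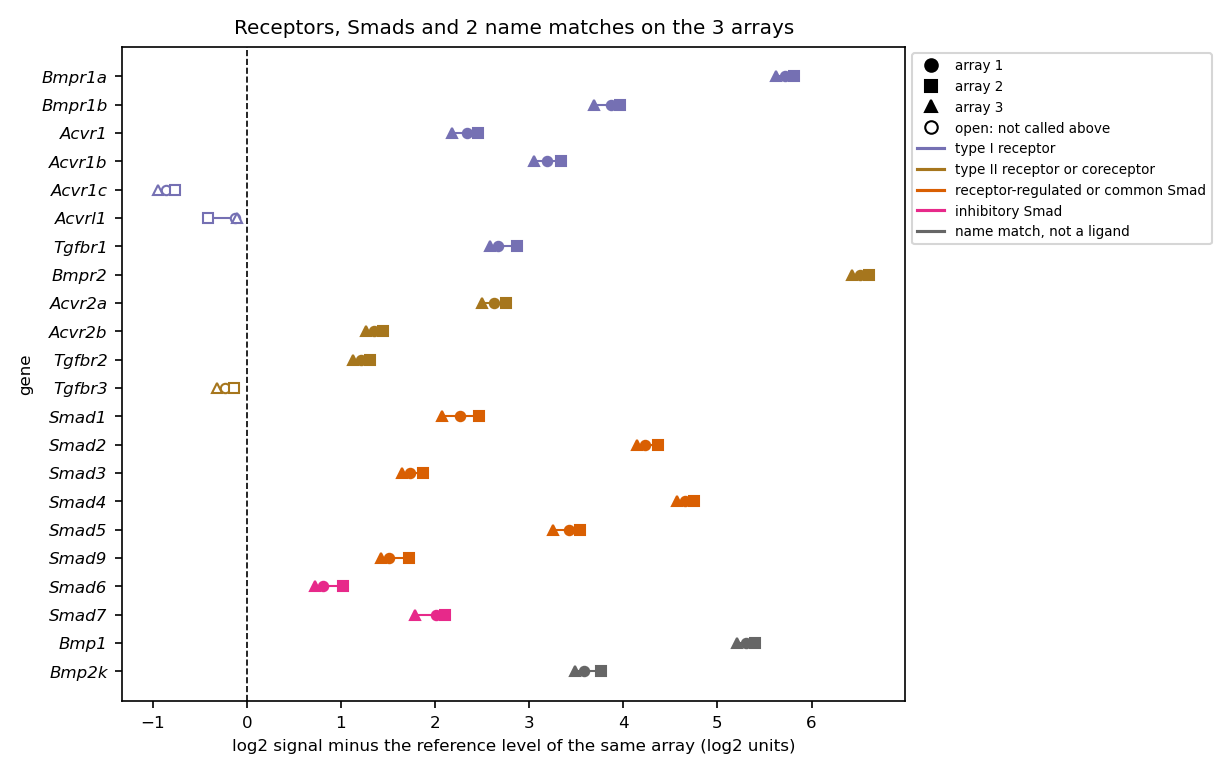
Log2 signal minus the reference level of the same array for receptor and Smad genes and for Bmp1 and Bmp2k, with 1 symbol per array and open symbols for genes not called. All Smads lie right of the dashed zero line, and Acvr1c, Acvrl1 and Tgfbr3 are the receptor genes left of it.

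Of the antagonists, noggin and follistatin had clear signals. Nog, which encodes a BMP trap described in the adult V-SVZ, had 7.12 on each array (margin 1.49). Fst, which encodes follistatin, an activin trap, had 7.24 on each array (margin 1.61). Chrd, which encodes chordin, had 5.87 on each array (margin 0.25, limma adjusted p = 0.00121), and its call ended without array 1 (limma adjusted p = 0.0948) and with the 99th percentile. The signal of Chrd was equal on all arrays, so without array 1 only the reference levels and the test changed. Grem1, which encodes the BMP trap gremlin, was not called at 4.94 on each array (margin -0.69).

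A pair of genes met the symbol rule although neither encodes a ligand. Bmp1 encodes a metalloproteinase that cuts procollagen and chordin, and had 10.93 on each array (margin 5.30). Bmp2k encodes a kinase named for its induction by BMP2, and had 9.21, 9.29 and 9.20 (margin 3.61). Without this pair, 33 of 50 members (66%) were called, against 59.1% of all genes.

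The genes of the pathway outside the symbol rule were measured from 6 lists, of which 80 genes had a value and 64 (80%) were called, against 59.1% of all genes. All 25 intracellular regulators were called, with a lowest margin of 1.61. They included the ubiquitin ligase genes Smurf2 (log2 signal 10.25), Wwp1 (11.14), Nedd4l (9.93) and Trim33 (10.22), the deubiquitinase genes Usp9x (11.03) and Usp15 (9.62), the phosphatase gene Ppm1a (10.11) and Tab2 (11.56), an adaptor of the kinase TAK1. The median margin of that list was 3.34.

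Of 16 known targets of the pathway, 15 (93.8%) were called, against 59.1% of all genes. The highest margins were those of Gfap (log2 signal 12.91), the astrocyte filament gene, Id2 (12.69), Hey1 (11.12), Cdkn1a (10.51), Id4 (9.73), Id3 (9.65), Cdkn2b (8.18) and Junb (8.16). Id1, a classic BMP target named here after its value was seen, had 7.93, 7.96 and 7.93. The lowest called margins were those of Tgfbi (0.20), Ccn2 (0.37) and Col1a1 (0.62), also named after their values were seen. Msx2, a homeobox target, was not called at 4.65. Targets such as Hey1 and Gfap are also set by other pathways, so these signals do not measure BMP activity.

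Secreted modulators were mixed, with 8 of 14 called (57.1%), about the share of all genes (59.1%). Twsg1 (log2 signal 10.86), a chordin partner, Htra1 (9.39), Fstl1 (8.95), Nbl1 (8.81), Chrdl1 (7.43) and Bmper (7.39) were called with margins of 1.77 or more. Fstl3 (6.03, margin 0.40), a follistatin relative, and Sostdc1 (5.79, margin 0.17, limma adjusted p = 0.0246), a secreted BMP and Wnt antagonist, were called narrowly. The count was 6 at the 99th percentile (44.9% of all genes), 7 without array 1 (56.4%) and 7 without array 3 (58.7%). Chrdl2 (5.05), Sost (5.66, 5.49 and 5.66), Cer1 (5.36), Lefty1 (5.42), Lefty2 (4.45) and Dcn (4.70) were not. Of the ligands outside the symbol rule, Amh (5.96) was called with a margin of 0.33, and Nodal (5.56) and Mstn (3.58), the myostatin gene, were not.

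Genes that store or activate ligands were called in 12 of 14 cases (85.7%), against 59.1% of all genes. The count was 7 with the 99th percentile of the receptors as the reference, where 44.9% of all genes were called. Itgb8 (log2 signal 11.99, 12.02 and 11.99) and Itgav (10.47 on average) encode the integrin pair that frees TGF-beta from its latent form, Ltbp3 (9.34) encodes a latent TGF-beta binding protein, and Furin (8.63) encodes a protease that matures ligands. The lowest called margins were those of Ltbp2 (0.25), Emilin1 (0.48), Ltbp1 (0.72), Thbs1 (0.73) and Fbn2 (0.73), named after their values were seen. Tll1 (5.23) and Tll2 (5.30), relatives of Bmp1, were not called. Of 8 other receptor and coreceptor genes, 3 (37.5%) were called, against 59.1% of all genes. They were Neo1 (11.41), the neogenin gene, its ligand gene Rgmb (8.64), a BMP coreceptor, and Bambi (7.37), a decoy receptor. The endothelial coreceptor gene Eng (5.55), Amhr2 (5.51), Hjv (5.70), Cfc1 (5.66) and the gene listed as Tdgf1 (4.80) were not.

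The spread between arrays was small for most members, with a median range of 0.062 log2 units, though that of all genes was lower at 0.036. Of 52 members, 22 had the same value on all arrays and 14 on 2 of them, where the same means identical as deposited. Over all 22180 genes, 8729 were identical on all arrays and 7917 on 2 of them. An SD of 0 therefore understates the spread, and the options of the authors' processing are not given in the sources used here. Over all genes, 5.31% had a range over 0.5 log2 units, with 2.57% of called and 9.25% of not called genes. The share of members past that range was about the same, at 5.77% (3 members). They were Gdf10 (range 0.74), Bmp8b (0.67) and Bmp8a (just over the limit, at 0.501), all BMP-type ligands near the reference level, and each was lowest on array 2, where the reference level was lowest too. Without array 2 the count was 0, and without array 3 it was 1. Of called members the widest range after Bmp8a was that of Smad1, at 0.22.

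**Figure D4:**
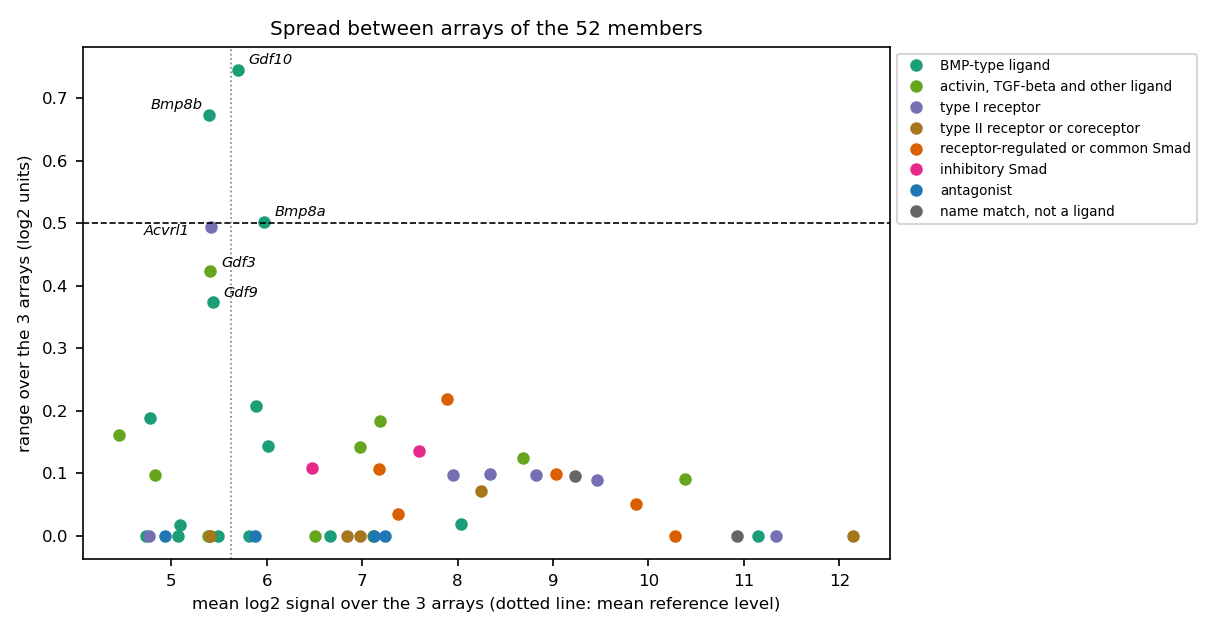
Range over the 3 arrays against mean log2 signal for the 52 members, coloured by role, with the dashed line at 0.5 and the dotted line at the mean reference level. Gdf10, Bmp8b and Bmp8a lie above or on the dashed line, all close to the reference level.

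Neighbouring members on the chromosomes were set side by side, since several pathway genes are adjacent relatives. In RefSeq gene order, 5 pairs of members had no other protein-coding gene between them. In 3 pairs one gene was called and its neighbour was not: Acvr1 (log2 signal 7.95) beside Acvr1c (4.77), Acvr1b (8.82) beside Acvrl1 (5.41), and Gdf2 (6.02) beside Gdf10 (5.70). Gdf2 and Gdf10 differed by less than the range of Gdf10. Smad3 (7.38) and Smad6 (6.48) were both called, and Inhbc (5.38) and Inhbe (4.82) were not.

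Promoters were compared because the rule used no sequence. RefSeq promoter windows of 260 bases on GRCm38.p6 were matched by symbol for 36 of the 52 members. Where a gene had several starts, the window with the most CpG dinucleotides was used. The median CpG count was 24 in 25 called members and 6 in 11 members not called, against 18 and 3 in called and not called genes of the whole array. The difference ran the same way in the members as in all genes. Exceptions stood on both sides. Bmpr1b, Inha, Bmp4, Tgfb2, Gdf2 and Bmp8a were called with 5, 4, 11, 8, 5 and 12 CpG. Acvr1c, Grem1, Gdf10, Gdf7 and Bmp8b were not called with 34, 25, 37, 22 and 18.

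To show this contrast, windows of BMP type I receptor genes and of an adjacent relative are given with each CpG in capitals. Bmpr1a (chr14:34502537-34502796, minus strand) held 39 CpG and Bmpr1b (chr3:141931411-141931670, minus strand) held 5, and both were called. Acvr1 (chr2:58566819-58567078, minus strand) held 47 and was called, and its neighbour Acvr1c (chr2:58357749-58358008, minus strand) held 34 and was not.
Bmpr1a: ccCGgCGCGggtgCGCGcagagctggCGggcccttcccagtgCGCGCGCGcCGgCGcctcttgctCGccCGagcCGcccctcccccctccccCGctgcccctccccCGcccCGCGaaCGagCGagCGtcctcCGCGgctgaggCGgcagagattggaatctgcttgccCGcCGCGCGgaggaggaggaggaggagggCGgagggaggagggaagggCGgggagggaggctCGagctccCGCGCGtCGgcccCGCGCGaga
Bmpr1b: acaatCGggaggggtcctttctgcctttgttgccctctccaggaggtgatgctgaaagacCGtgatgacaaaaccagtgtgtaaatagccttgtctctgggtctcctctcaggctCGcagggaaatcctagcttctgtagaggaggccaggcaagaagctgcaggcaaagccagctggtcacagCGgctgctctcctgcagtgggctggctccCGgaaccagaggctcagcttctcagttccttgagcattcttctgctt
Acvr1: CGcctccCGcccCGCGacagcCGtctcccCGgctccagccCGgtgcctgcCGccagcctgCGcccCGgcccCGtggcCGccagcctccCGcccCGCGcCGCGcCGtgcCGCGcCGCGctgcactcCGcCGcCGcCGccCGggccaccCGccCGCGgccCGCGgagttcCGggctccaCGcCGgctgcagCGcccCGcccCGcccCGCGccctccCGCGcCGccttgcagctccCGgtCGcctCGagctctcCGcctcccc
Acvr1c: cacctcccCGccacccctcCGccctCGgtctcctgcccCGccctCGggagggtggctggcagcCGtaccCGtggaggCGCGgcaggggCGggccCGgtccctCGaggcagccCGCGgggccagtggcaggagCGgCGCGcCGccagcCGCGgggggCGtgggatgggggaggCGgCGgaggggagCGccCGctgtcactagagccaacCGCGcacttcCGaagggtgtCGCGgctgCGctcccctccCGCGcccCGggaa
The motif GGCGCC, part of a BMP-responsive element and equal on both strands, stood in 7 of 25 windows of called members and 1 of 11 of those not called. Among all genes it stood in 19.3% of called and 5.53% of not called ones. A match to these letters is a description and not a site.

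**Figure D5:**
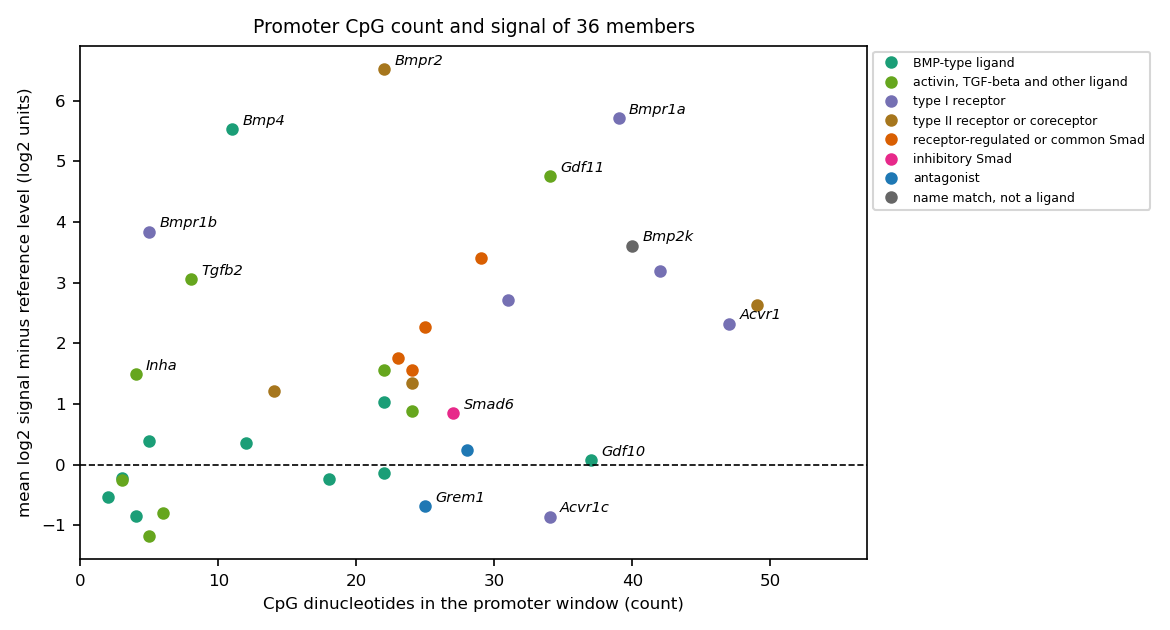
Mean log2 signal minus the reference level against the CpG count of the promoter window for 36 members, coloured by role, with the dashed line at the reference level. Bmp4 and Bmpr1b lie high with few CpG, and Acvr1c, Grem1 and Gdf10 lie near or under the line with 34, 25 and 37.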

How the data were processed

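The authors deposited log2 signals for 41345 probe sets on 3 arrays, which per the submitters' processing notes came from RMA, a method that corrects background and normalizes between arrays. Its version and options are not given in the sources used here. Of the probe sets, 23521 carried 1 gene symbol, 1814 several and 16010 none in the platform annotation. Only those with 1 were named, and the probe set with the highest mean was used per gene. With 1 group there is no contrast, so signals minus the reference level were tested with limma 3.58.1 in R 4.3.3 (intercept, eBayes with an intensity trend, one-sided, Benjamini-Hochberg over 22180 genes). The prior degrees of freedom were infinite, so genes of like signal shared 1 spread and margins from 0.15 passed. The test was tried on simulated data with the same reference level on each array and independent noise. The real arrays differ in both, so that trial does not vouch for the calls. The members and lists were chosen with earlier results of these data known. All members are reported. Of the other lists, genes were named by margin, up to 8 called and 8 not called per list. A few more were named after their values were seen, as stated beside them. Marker genes are given as counts. Array number limits precision (n = 3). Figures used matplotlib 3.10.9. Sequences are RefSeq's.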

Additional observations from a re-analysis of the deposited data

How the results depend on the processing

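Members called numbered 43 with the 90th percentile of the receptors as the reference (66.7% of all genes), 26 with the 99th (44.9%), and 24 with 139 probe sets of keratin-associated proteins, defensins and taste receptors (43.4%). Scaling, model, probe set choice and leaving out an array gave 32 to 35, with 56.4% to 59.4% of all genes called. In all 9 alternatives, 32 of 52 members kept direction and call. BMP-type ligands numbered 12 at the 90th percentile and 2 at the 99th and with the other reference genes. The 99th percentile and the other reference genes each gave 1 inhibitory Smad, 7 storage and activation genes and 0 other ligands, and the second gave 2 type II receptors or coreceptors. The 90th gave 2 other ligands and 7 other receptors. Members with a range over 0.5 numbered 0 to 3 with an array left out.

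Margins changed sign as follows. At the 99th percentile Bmp3 had -0.59, Bmp8a -0.43, Gdf2 -0.38, Gdf5 -0.52, Gdf10 -0.70, Chrd -0.53, Amh -0.44, Hjv -0.70 and Cfc1 -0.74. With the other reference genes Bmp3 had -0.63, Bmp8a -0.47, Gdf2 -0.43, Gdf5 -0.56, Gdf10 -0.75, Chrd -0.57, Amh -0.49, Hjv -0.75 and Cfc1 -0.79. At the 90th percentile Bmp8b had 0.13, Bmp10 0.14, Gdf7 0.22, Gdf9 0.17, Inhbc 0.11, Gdf3 0.14, Acvrl1 0.14, Tgfbr3 0.14, Sost 0.33, Cer1 0.095, Lefty1 0.15, Nodal 0.29, Tll2 0.029, Amhr2 0.24 and Eng 0.28. With the median over probe sets Gdf5 had -0.31. With 1 array left out, Gdf10 ranged between -0.047 (without array 3) and 0.23 (without array 2) and Cfc1 between -0.0097 (without array 2) and 0.081 (without array 3). A higher or lower reference level moves every margin by construction. No paired analysis was possible because the series holds 1 group.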
